A study of Mus musculus with 9 samples.

Results

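Tagln, Smtn, Vcl, Thbs1, Tgfb2 and Ccn2, 6 genes of smooth muscle contraction, adhesion and matrix signalling, were followed in MOVAS cells. MOVAS is an immortalised line of mouse aortic smooth muscle cells, kept in serum-containing medium with the antibiotic G418, and its genotype is labelled C57BL/6. The 3 groups, of 3 RNA sequencing libraries each, were untreated control, DON at 50 mM for 24 h, and the same DON with 2 mM glutamate, and the series title places them in a study of the glutaminase GLS2 and the artery wall. DON is a mimic of glutamine that inactivates glutaminase and other enzymes that take the amide group of glutamine, and glutamate is the product of glutaminase. Both treated groups therefore carry DON, and all 9 libraries come from the same line. The dose is given as the labels state it, and glutamate stands for the compound so labelled.

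The 6 genes are read through rows of the deposited table that carry other names, because the counts lie mostly in rows whose exons face an expressed gene on the opposite strand. They are AC122273.1 for Tagln, Gm11946 for Smtn, Ap3m1 for Vcl, Gm29233 for Thbs1, Gm29491 for Tgfb2 and Gm15270 for Ccn2. A strand-marked library counted with the opposite setting would give such a table. The strand setting is not given in the sources used here, and settling it would take a recount of the reads. The 6 are among 4115 coding genes read this way and among the 2444 of these that passed the filter on low counts, out of 53379 deposited rows, and all 6 passed that filter. The genes were chosen with results of these data already known. Which contrast the choice used is not stated, and it is taken here to be DON against control. Their difference between DON and control is therefore a description. No p is given for it, and the number of the 6 called there stands once, beside the share of all genes.

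Contractile smooth muscle cells express a set of actin-binding and cytoskeletal genes that serum response factor, with the coactivators MRTF and myocardin, switches on through a promoter element called the CArG box. YAP and TEAD are the nuclear end of the Hippo pathway, respond to cell spreading and tension, and drive genes such as Ccn2. TGF-beta ligands are secreted in a latent form that thrombospondin-1 can activate, and active TGF-beta raises contractile and matrix genes in the artery wall. Among the 6, Tgfb2 encodes a ligand. Thbs1 and Ccn2 encode secreted matrix proteins that are listed as targets of both pathways. Tagln and Smtn encode the actin-binding proteins transgelin and smoothelin, and Vcl encodes vinculin, which links integrin adhesions to actin.

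Each value covers only the exons that the row faces, on the mouse build mm10 with GENCODE M21 annotation. Row AC122273.1 faces 1241 bp of Tagln (chr9:45929619-45936058, minus strand), in exons 2 to 5 of 5, which is 62.4% of its exon length. Row Ap3m1 faces 2090 bp of Vcl (chr14:20929398-21033676, plus strand), all in the last exon, 21, of which 147 bp are coding and 1943 bp are not. Row Gm11946 faces 714 bp of Smtn (chr11:3517523-3540612, minus strand), in 5 exons between 2 and 9 of 20. Row Gm15270 faces 665 bp of Ccn2 (chr10:24595442-24598683, plus strand), in exons 1 and 4 of 5. The coverage of the other pair of genes was small. Row Gm29233 faces 208 bp of Thbs1 (chr2:118111876-118127133, plus strand), in exons 19 and 20 of 22, and row Gm29491 faces 124 noncoding bp of Tgfb2 (chr1:186622792-186705989, minus strand), in exon 1 of 8. A further 382 of the 506 exon bp of Gm29491 lie outside Tgfb2, and 1360 of the 2053 exon bp of Gm15270 lie outside Ccn2. In the rows for Tagln and Smtn, 1295 and 3632 exon bp lie opposite introns. Whether intronic or neighbouring reads entered these counts was not tested.

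**Figure D1:**
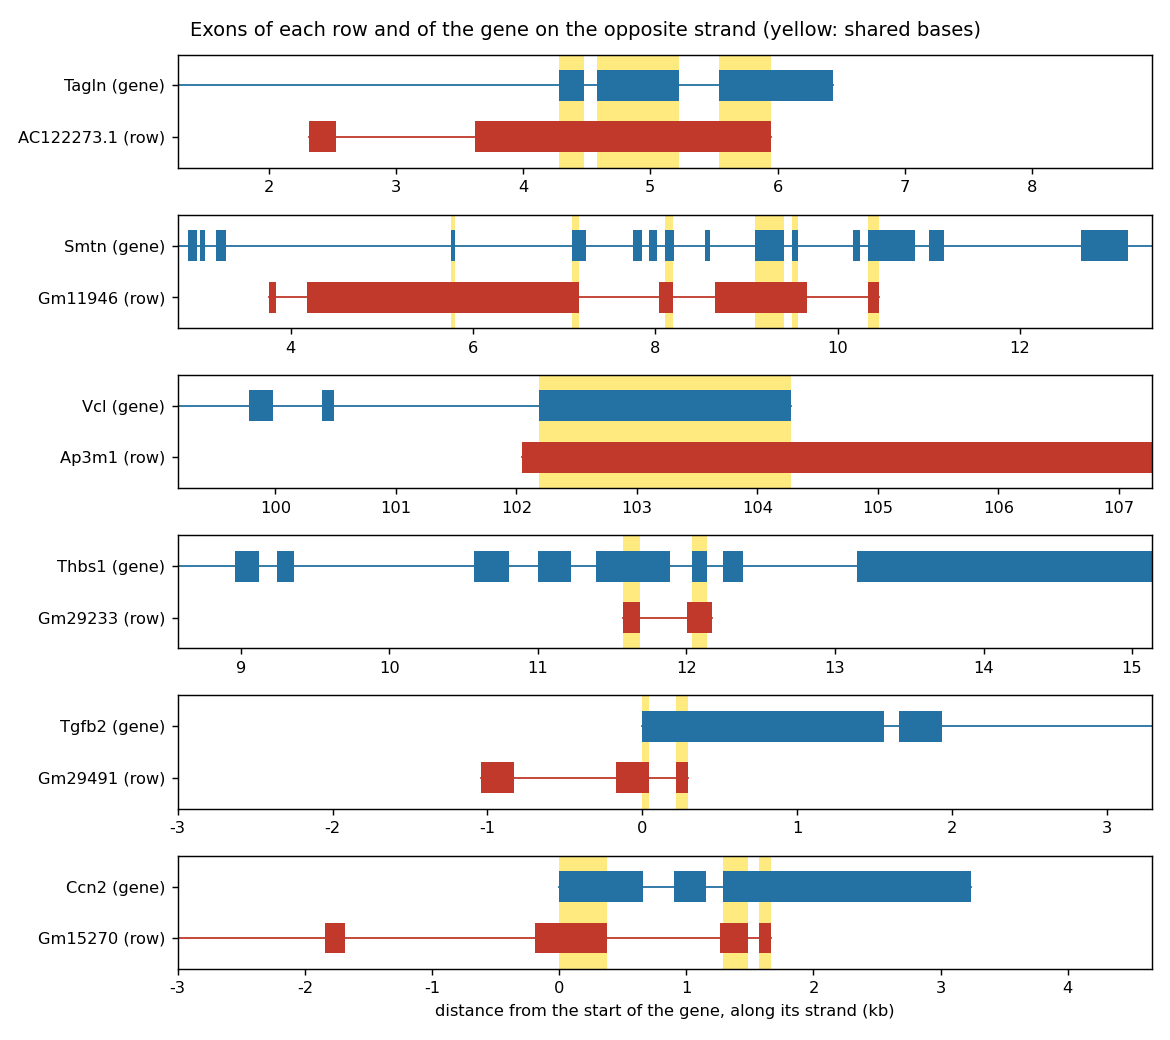
Exons of each row and of the gene on the opposite strand, by distance in kb from the start of the gene, with shared bases in yellow. Each panel is cropped around the shared bases, so parts of some rows and genes lie outside it. The rows for Tagln and Smtn hold 1295 and 3632 bp facing introns, the row for Vcl has 4780 of its 7015 bp outside the gene, and the row for Thbs1 is 281 bp long.

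Thbs1 had the largest number of counts per kilobase of overlap. Besides 21 bp facing noncoding exon parts and 73 bp facing introns, its row covers the following spliced coding bases of exons 19 and 20. They were read from mm10 at chr2:118123451-118124013 on the plus strand. They are 187 bases, 5′ to 3′, with 89 bases of exon 19 in lower case and 98 bases of exon 20 in capitals.
Thbs1: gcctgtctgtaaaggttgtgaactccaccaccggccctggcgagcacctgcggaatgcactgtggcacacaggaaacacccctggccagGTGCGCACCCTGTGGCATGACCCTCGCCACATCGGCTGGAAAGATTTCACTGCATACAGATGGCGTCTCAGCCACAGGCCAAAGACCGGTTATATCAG
The coding part of Vcl that its row faces is the end of the coding sequence, at the start of the last exon, 147 bases at chr14:21031587-21031733 on the plus strand, with no part in capitals.
Vcl: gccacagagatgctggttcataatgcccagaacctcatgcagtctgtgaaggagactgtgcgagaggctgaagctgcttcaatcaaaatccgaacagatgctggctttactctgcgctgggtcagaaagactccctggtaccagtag

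The promoters bear on the pathways named above, and RefSeq windows on GRCm38.p6 matched 3 of the 6 genes, Vcl, Smtn and Tgfb2. Tagln, Thbs1 and Ccn2 had no entry. The 250 bases before the start that RefSeq gives each gene were searched on both strands for the CArG box, the TEAD motif GGAATG, the SMAD element GTCTAGAC and the CAGA box AGCCAGACA. Capitals mark matches, and positions count back from that start. The Vcl window, chr14:20929148-20929397 on the plus strand, holds a CArG box at -227 to -218 and GGAATG at -143 to -138.
Vcl: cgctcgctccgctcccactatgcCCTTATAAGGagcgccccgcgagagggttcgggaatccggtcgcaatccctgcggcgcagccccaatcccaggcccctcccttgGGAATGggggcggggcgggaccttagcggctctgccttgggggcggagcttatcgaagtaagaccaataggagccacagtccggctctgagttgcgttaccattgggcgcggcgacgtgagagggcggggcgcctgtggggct
The Smtn window, chr11:3539293-3539542 on the minus strand, lies inside the GENCODE span of the gene given above, since the RefSeq start used is further downstream. It holds the TEAD motif on its other strand, as CATTCC, at -222 to -217.
Smtn: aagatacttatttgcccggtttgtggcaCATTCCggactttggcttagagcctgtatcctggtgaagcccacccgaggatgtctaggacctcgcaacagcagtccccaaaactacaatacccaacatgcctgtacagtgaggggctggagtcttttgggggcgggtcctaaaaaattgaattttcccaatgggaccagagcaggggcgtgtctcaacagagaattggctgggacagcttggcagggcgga
The Tgfb2 window, chr1:186705990-186706239 on the minus strand, holds none of the 4 motifs, and 167 of its 250 bases lie within exons of Gm29491.
Tgfb2: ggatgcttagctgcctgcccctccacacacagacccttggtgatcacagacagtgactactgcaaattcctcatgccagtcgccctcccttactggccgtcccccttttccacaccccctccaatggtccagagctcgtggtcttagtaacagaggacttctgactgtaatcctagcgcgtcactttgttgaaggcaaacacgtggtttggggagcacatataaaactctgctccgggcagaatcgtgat
Among 32841 promoter windows of this length, 1.47% hold a CArG box, 12.6% GGAATG, 0.167% the SMAD element and 0.301% the CAGA box. A match is a run of letters and not a measured binding site.

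Libraries held from 1304980 to 1342286 counts, except DON plus glutamate replicate 3, which held 1132822. That library also held the lowest DON plus glutamate value of Tagln, Smtn, Thbs1 and Ccn2, as given with those genes. The labels do not say whether replicates are separate cultures, so the p-values below speak of the spread among libraries, which may be technical only. Fewer cells and less RNA per cell cannot be told apart in such samples. Among markers of other cell types, 0 of 6 endothelial, 0 of 7 leukocyte, 0 of 5 epithelial and 0 of 3 adipocyte genes had a tested value. Of 6 fibroblast markers only Pdgfra, at 3 to 22 counts, was tested. It was at 21.7 ± 2.01 CPM in control, 6.35 ± 4.58 in DON and 9.91 ± 5.38 in DON plus glutamate (SD, n = 3), a log2 change of -1.74 ± 0.41 in DON against control (edgeR adjusted p = 0.00516) and -1.15 ± 0.38 in DON plus glutamate against control (adjusted p = 0.0742). Its part in the results below was not tested. The smooth muscle markers Acta2, Myh11, Cnn1 and Lmod1 had no opposite row, and their own rows held at most 14, 2, 2 and 7 counts. Des, also on that marker list, had an opposite row that did not pass the filter on low counts. So the smooth muscle identity of the line rested on Tagln and Smtn.

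The rows that carry the genes' own names held far fewer counts for 4 of the 6. The row named Vcl held 35 to 63 counts per library and its opposite row 5110 to 7037. Smtn had 0 to 3 counts under its own name against 608 to 1081, Thbs1 3 to 13 against 1029 to 1774, and Ccn2 3 to 16 against 345 to 621. Tagln and Tgfb2 were less one-sided. The row named Tagln held 68 to 104 counts, or 23.9% of both rows, and 108 bp of it lie opposite Pcsk7. The row named Tgfb2 held 9 to 24 counts against 13 to 37 opposite, so the ranges overlapped and the strand reading of Tgfb2 is the least certain of the 6. The opposite row for Vcl is itself a coding gene, Ap3m1, which encodes a subunit of a vesicle adaptor complex. Read in the same way, Ap3m1 would take the 35 to 63 counts of row Vcl, which differed from control by a log2 change of 0.24 ± 0.20 (SE, edgeR adjusted p = 0.502) under DON and 0.38 ± 0.20 (adjusted p = 0.301) under DON plus glutamate.

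**Figure D2:**
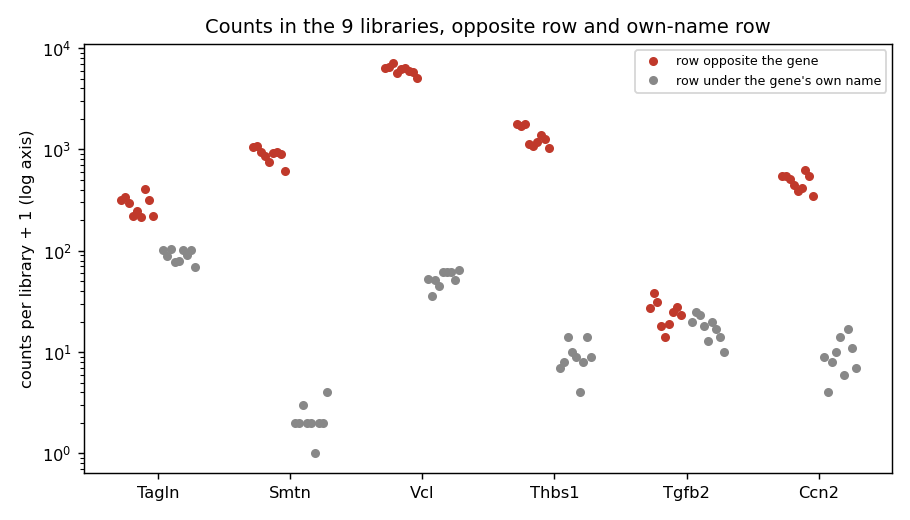
Counts per library plus 1, on a log axis, in the row that carries each gene's own name and in the row opposite it. The 2 sets lie far apart for Smtn, Vcl, Thbs1 and Ccn2, are closer for Tagln (68 to 104 against 216 to 407) and overlap for Tgfb2 (9 to 24 against 13 to 37).

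Levels below are CPM, counts of a gene scaled to a common total of the tested genes with TMM factors. Per kilobase of overlap, the control level was highest for Thbs1, at a mean of 9102 CPM per kb, then Vcl at 3421, Smtn at 1546 and Ccn2 at 870.4. Tagln and Tgfb2 came last, at 276 and 271 CPM per kb, and their control ranges of 259 to 297 and 225 to 324 overlapped. In DON these last 2 separated, with Tagln at 183 to 212 CPM per kb and Tgfb2 at 113 to 153, and in DON plus glutamate they overlapped again. Reads that only partly lie in the overlap are counted whole, so short overlaps such as those of Thbs1 and Tgfb2 give levels that are too high beside the others.

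Tgfb2, the ligand, was the least abundant by counts. Control libraries held 27.8, 40.2 and 32.8 CPM (26, 37 and 30 counts), DON libraries 17.9, 14.1 and 18.9 CPM (17, 13 and 18 counts), and DON plus glutamate libraries 25.3, 28.6 and 27.4 CPM (24, 27 and 22 counts). All 3 DON libraries lay below every other library, and DON plus glutamate lay within or below the control range. The mean under DON was 17.0 ± 2.58 CPM (SD, n = 3) against 33.6 ± 6.23 in control, 1.97-fold lower, with a log2 difference of -0.98 ± 0.26 (SE). Against DON alone, added glutamate gave a log2 difference of 0.67 ± 0.27 (95% interval 0.12 to 1.22), which did not pass the test (edgeR adjusted p = 0.626 over all 2444 genes). Against control the difference of DON plus glutamate was -0.31 ± 0.24 (interval -0.79 to 0.17, adjusted p = 0.528), or -0.15 without control replicate 2. With at most 37 counts a library, intervals this wide take in both no difference from control and a difference as large as -0.79.

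Thbs1, which encodes thrombospondin-1, had the widest gap between control and both treated groups relative to its spread. Control libraries held 1895, 1845 and 1939 CPM, DON libraries 1192, 1157 and 1255, and DON plus glutamate libraries 1468, 1351 and 1282. The 3 groups did not overlap with each other: control was highest, DON lowest, and DON plus glutamate between them. The DON mean of 1202 ± 49.8 CPM was 1.58-fold lower than the control mean of 1893 ± 47.0 CPM (SD, n = 3), a log2 difference of -0.66 ± 0.07. DON plus glutamate, at 1367 ± 94.2 CPM, fell relative to control by 1.38-fold, with a log2 change of -0.47 ± 0.07 (95% interval -0.62 to -0.32, edgeR adjusted p = 3.97e-05). This was the only one of the 6 genes to pass the test in DON plus glutamate against control, and it passed under each of 19 other settings (adjusted p from 4.59e-08 to 0.000884). Against DON alone the difference was 0.19 ± 0.07 (interval 0.04 to 0.34), which did not pass (adjusted p = 0.626). This contrast shares its DON plus glutamate libraries with the former. Both also share libraries, control or DON, with the contrast taken to have chosen the genes. Their p-values, under any setting, are therefore not independent of that choice.

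Ccn2, which encodes the matricellular protein CCN2 (connective tissue growth factor), held 590.0, 586 and 561 CPM in control, 464, 423 and 433 in DON, and 655, 579 and 429.8 in DON plus glutamate. The control and DON libraries kept apart, whereas the DON plus glutamate libraries spread from above the highest control to within the DON range, with the shallowest library, replicate 3, lowest. The DON mean of 439.9 ± 21.7 CPM was 1.32-fold lower than 579 ± 15.8 CPM in control, a log2 difference of -0.40 ± 0.10. DON plus glutamate against DON gave 0.34 ± 0.10 (interval 0.13 to 0.55, edgeR adjusted p = 0.411). Without DON plus glutamate replicate 3 the difference was 0.49 and passed (adjusted p = 0.00969), so this call is decided by 1 library. Without replicate 1 of the same group it was 0.20 (adjusted p = 0.606). Over all alternatives the adjusted p ran from 0.00969 to 0.892. Against control, DON plus glutamate differed by -0.06 ± 0.10 (interval -0.27 to 0.15, adjusted p = 0.818).

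Tagln, the transgelin gene, also spread widely in DON plus glutamate but did not reach the DON range there. Control libraries held 336, 368 and 321 CPM, DON libraries 232, 263 and 227, and DON plus glutamate libraries 429, 331 and 275. All DON libraries lay below every other library, and the DON plus glutamate libraries lay on both sides of the control range, again with replicate 3 lowest. Mean levels were 342 ± 24.0, 241 ± 19.2 and 345 ± 78.0 CPM (SD, n = 3 each), and DON against control was 1.42-fold lower, a log2 difference of -0.51 ± 0.12. DON plus glutamate against DON gave 0.53 ± 0.12 (interval 0.28 to 0.78), which did not pass (edgeR adjusted p = 0.204). The same difference passed once DON plus glutamate replicate 3 was left out (0.66, adjusted p = 0.00701), whereas it was 0.34 without replicate 1 of that group (adjusted p = 0.440). It also passed when genes of low count were kept in the fit (adjusted p = 0.00138), with a range of 0.00138 to 0.753 over all alternatives. Against control, DON plus glutamate differed by 0.02 ± 0.12 (interval -0.22 to 0.26, adjusted p = 0.952).

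Smtn, a marker of the contractile state, held 1117, 1175 and 1019.8 CPM in control, 913, 814 and 979 in DON, and 997, 947 and 757 in DON plus glutamate. Every treated library lay below every control library, and the 2 treated groups overlapped. The DON and DON plus glutamate means were 902 ± 82.7 and 900.3 ± 126 CPM against 1104 ± 78.3 in control. DON was 1.22-fold lower than control, a log2 difference of -0.29 ± 0.09. Added glutamate gave 0.00 ± 0.09 against DON (interval -0.18 to 0.19, edgeR adjusted p = 1.0). DON plus glutamate against control was -0.29 ± 0.09 and just missed the threshold (adjusted p = 0.0539). It passed in 5 of 19 alternatives, with adjusted p from 0.0124 to 0.284 over all of them, among them those without DON replicate 2 (0.0339) and without DON plus glutamate replicate 1 (0.0260), and was -0.18 without DON plus glutamate replicate 3 (0.284).

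Vcl was the most abundant of the 6 by counts and differed least from control under DON. Control libraries held 6728, 7028 and 7692 CPM, DON libraries 6009, 6645 and 6647, and DON plus glutamate libraries 6248, 6089 and 6366. Treated libraries were all below control, and the 2 treated groups overlapped. Mean levels were 7149 ± 493, 6434 ± 368 and 6234 ± 139 CPM. DON was 1.11-fold lower than control, a log2 difference of -0.15 ± 0.07 that was -0.09 without control replicate 3. DON plus glutamate differed from DON by -0.05 ± 0.07 (interval -0.19 to 0.10, edgeR adjusted p = 0.909) and from control by -0.20 ± 0.07 (interval -0.34 to -0.06, adjusted p = 0.0973), the latter -0.13 without control replicate 3.

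**Figure D3:**
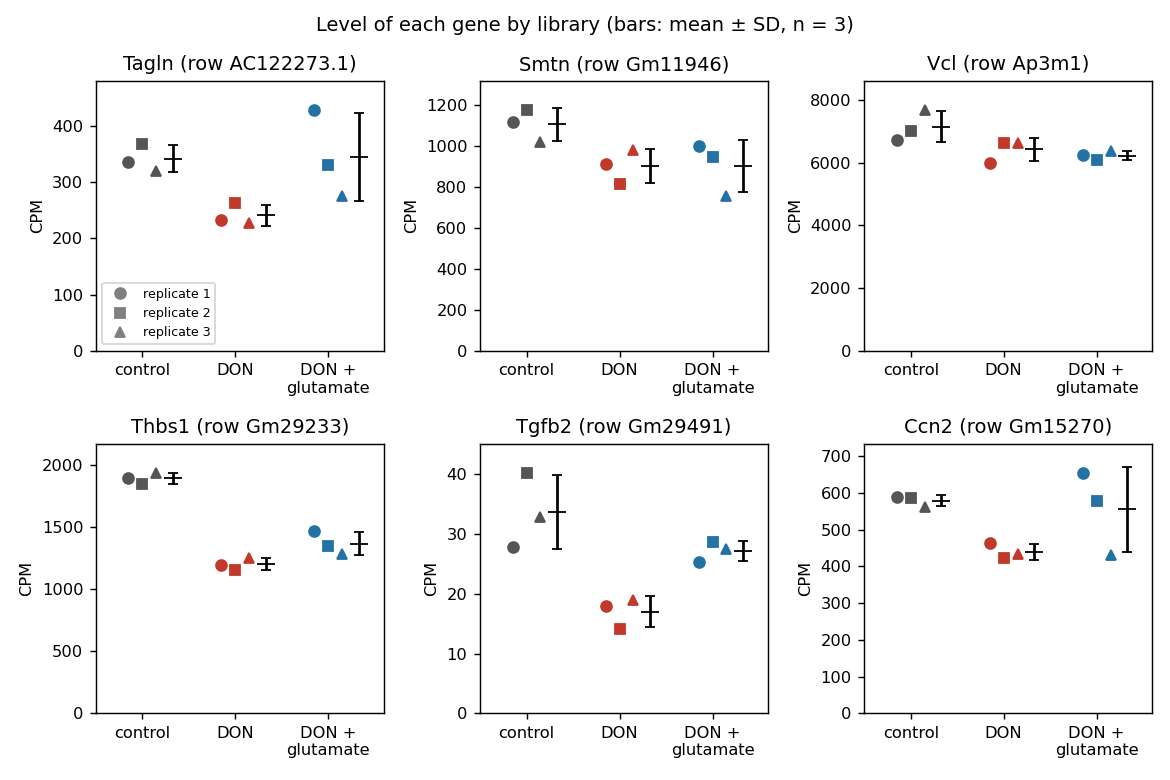
CPM of the 6 genes in each of the 9 libraries, by group, with the group mean and SD (n = 3) and an axis of its own for each gene. Every DON library lies below every control library in all 6 panels, and the DON plus glutamate libraries of Tagln (275 to 429) and Ccn2 (429.8 to 655) spread widely.

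Counted together, 5 of the 6 were lower in DON than in control at adjusted p under 0.05, where 6.46% of all tested genes were, and the libraries of all 6 did not overlap and were lower in DON, where this held for 14.9% of genes. The number called was 4 of the 6 with library totals, with the replicate number as a block and with DESeq2. These settings called 116, 119 and 111 of all 2444 genes lower. DESeq2 gave Tgfb2 no adjusted p. Without control replicate 2, Tagln, Smtn, Tgfb2 and Ccn2 were no longer called, while Thbs1 still was. That setting called 142 of all genes in either direction, against 283 with all libraries. Smtn kept its call in 12 of 19 alternatives. The values of this contrast are taken as those that the choice used, and nothing is read from them. Over all genes, 125 were called higher and 158 lower in this contrast, a split that became 152 and 116 when library totals replaced TMM, which moved the median of all genes by 0.04 on the log2 scale. In DON plus glutamate against DON, 0 of the 6 passed with edgeR, where 0.0409% of all genes did. At an unadjusted p under 0.05, 4 of the 6 passed with edgeR, 4 with limma voom and 3 with DESeq2, where 174, 176 and 95 of all 2444 genes did, and limma voom and DESeq2 also called 0 of the 6 after adjustment. The libraries of 3 of the 6, Tagln, Thbs1 and Tgfb2, did not overlap and were higher, against 5.32% of all genes, and the median difference was 0.26 for the 6 and -0.00 for all genes. The DON libraries in this contrast are shared with the contrast taken to have chosen the genes. A choice for low DON values would by itself raise these counts and the median, so no effect of glutamate is read from them.

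In DON plus glutamate against control, 1 of the 6 was called lower, against 2.74% of all genes, and the libraries of 3 of the 6, Smtn, Vcl and Thbs1, did not overlap and were lower, against 12.1%. The median difference was -0.24 for the 6 and 0.00 for all genes. Here 64 genes were called higher and 67 lower, or 82 and 51 with library totals. The control libraries are shared with the contrast taken to have chosen the genes, and a choice for high control values would by itself lower the differences of the 6. Side by side, the point estimates of Tagln and Ccn2 in DON plus glutamate lay within 0.06 of control on the log2 scale, although other settings moved them between -0.16 and 0.16 for Tagln and between -0.19 and 0.10 for Ccn2, both ends set by leaving out DON plus glutamate replicate 1 or 3. The estimate of Smtn was the same as under DON alone, Vcl lay slightly further from control than under DON, and Thbs1 and Tgfb2 lay between their DON and control values. Whether the response to glutamate differs between the 6 genes was not tested.

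**Figure D4:**
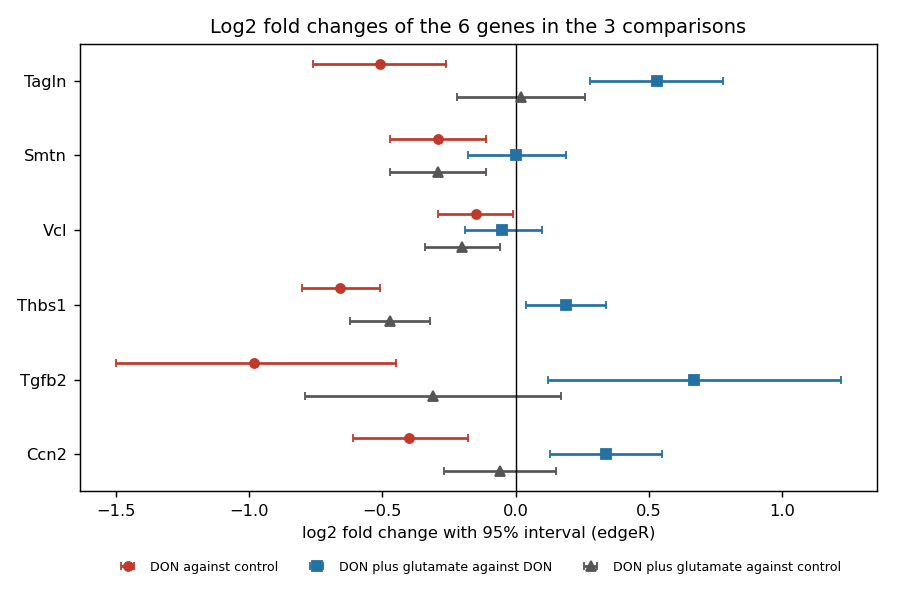
Log2 difference of the 6 genes with its 95% interval in the 3 comparisons. Intervals for DON plus glutamate against DON lie above 0 for Tagln, Thbs1, Tgfb2 and Ccn2 before any adjustment for the number of genes, and around 0 for Smtn and Vcl.

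The ratio of each gene to Vcl within a library needs no scaling between libraries. Tagln relative to Vcl was at a mean log2 ratio of -4.39 (-4.58 to -4.25) in control, -4.74 (-4.87 to -4.66) in DON and -4.20 (-4.53 to -3.86) in DON plus glutamate. The ratio of Thbs1 to Vcl was -1.92 (-1.99 to -1.83), -2.42 (-2.52 to -2.33) and -2.19 (-2.31 to -2.09) in the same order, with no overlap between groups. For Tgfb2 it was -7.75 (-7.92 to -7.45), -8.58 (-8.88 to -8.39) and -7.85 (-7.95 to -7.73). So these 3 ratios were lowest in DON in every library. The control and DON libraries are those taken to have chosen the genes, and the share of all genes with such a ratio is not given. Nothing is therefore read from this separation. Smtn to Vcl, at means of -2.70, -2.84 and -2.80, overlapped between groups, and so did Ccn2 to Vcl, at -3.62, -3.87 and -3.51. A ratio of this kind shows unequal change and not that Vcl was constant.

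The spread among DON plus glutamate libraries was not alike for the 6. Its coefficient of variation was 22.6% for Tagln and 20.7% for Ccn2, against 7.03% and 2.73% in control. It was 14.0% for Smtn, 6.89% for Thbs1, 6.18% for Tgfb2 and 2.23% for Vcl. The genes with the widest spread were those whose lowest DON plus glutamate value came from replicate 3, the library with the fewest counts. Its part in these values beyond the leave-one-out results above was not tested.

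Across the 9 libraries, Tagln and Ccn2 were each other's closest match among genes of at least 50 CPM, at a Pearson r of 0.911 of log2 CPM. The points share libraries and the 3 group means, so such values are descriptions. Rnd2 (r = 0.863) and the splicing kinase gene Clk3 (0.846) came next for Tagln, and Gramd1a (0.884) and Thbs3 (0.883) for Ccn2. Smtn was closest to the small heat shock protein gene Hspb2 (0.945), to Ctnnbip1 (0.918) and to Pcdh7 (0.916). Among the genes most like Thbs1 were Rcn3 (0.969) and the cyclin D1 gene Ccnd1 (0.968). Vcl was closest to Sgo2a (0.950), Sfrp2 (0.940) and Echdc1 (0.920), and Tgfb2 to Mrps7 (0.968), Ndufb2 (0.951) and Ginm1 (0.948). Between the 6 genes themselves r ran from 0.144, for Vcl and Ccn2, to 0.911.

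The other genes of these pathways were taken from 8 lists of 143 genes in all, of which 23 had a tested opposite-strand value and 17 are not among the 6. Of the 17, 5 fell and 0 rose in DON against control, 0 changed in DON plus glutamate against DON, and 3 fell and 0 rose in DON plus glutamate against control. Of all tested genes 6.46% were called lower in the first contrast and 2.74% in the last. Their median log2 differences were -0.14, -0.01 and -0.14. At an unadjusted p under 0.05 edgeR gave 7, 0 and 6 of the 17 in the 3 contrasts, with 0 higher in any, and 585, 174 and 462 of all 2444 genes. DESeq2 called 4, 0 and 2 and limma voom 5, 0 and 2 after adjustment, also with 0 higher. Most listed genes had no measured value, among them Acta2, Myh11, Ccn1 and Ankrd1, and the counts speak only for those that did. The lists were chosen with earlier results of these data known, so these counts and the p-values of list genes below are no independent check of the pathways. Values of the 17 also cover only the exons that a row faces. These overlaps ran from 84 bp for Elk4 to 2106 bp for Ilk, with 116 bp for Yap1 and 134 bp for Tpm4.

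Of the ligand and receptor list (22 genes), 4 were tested: Tgfb2 and Thbs1, described above and taken as chosen on DON against control, and Tgfb3 and Ltbp3. Tgfb3, another TGF-beta ligand, fell from 348 ± 22.6 to 248 ± 19.6 CPM (SD, n = 3), a log2 change of -0.49 ± 0.10 (edgeR adjusted p = 0.00158), and was at 279.9 ± 18.1 CPM in DON plus glutamate, which did not pass against DON (adjusted p = 0.779) or control (0.0657). Ltbp3, which holds latent TGF-beta in the matrix, was at 0.05 ± 0.09 in DON against control (adjusted p = 0.806). Of 20 TGF-beta targets 3 were tested, and Bhlhe40 was the only one besides Thbs1 and Ccn2. Bhlhe40, a transcription factor gene, fell by a log2 change of -0.35 ± 0.11 (adjusted p = 0.0409), but this passed in only 10 of 18 alternatives and was lost without control replicate 2 (0.187) or 3 (0.183) or DON replicate 2 (0.220) or 3 (0.0554). Its fall against control in DON plus glutamate (-0.37 ± 0.11, adjusted p = 0.0493) passed in 7 of 18 and was lost without control replicate 2 or 3, DON replicate 3, or DON plus glutamate replicate 1 or 3.

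For YAP and TEAD, 5 of 22 targets were tested, 3 of them among the 6: Ccn2, Tgfb2 and Thbs1. The other two, Ptpn14 and Foxf2, gave -0.14 ± 0.12 (edgeR adjusted p = 0.518) and -0.06 ± 0.15 (adjusted p = 0.850). Yap1 itself was the only tested gene of 20 Hippo components. It lay at 396 ± 41.0 CPM in control, 398 ± 28.0 in DON and 394 ± 18.9 in DON plus glutamate, with a log2 difference of 0.01 ± 0.10 under DON (interval -0.18 to 0.21, adjusted p = 0.963). The activity of YAP, which is set largely by its place in the cell, was not measured. Of 14 serum response factor and MRTF genes 3 were tested and 0 passed in any comparison with edgeR, DESeq2 or limma voom, although Mrtfb was lower at an unadjusted p of 0.0191 (edgeR) in DON plus glutamate against control. Rhoa, the GTPase that drives actin assembly, gave 0.03 ± 0.08 (interval -0.13 to 0.18) in DON against control, Elk4 0.05 ± 0.08 and Mrtfb -0.25 ± 0.20.

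Among 26 contractile genes 6 were tested, and of the 3 besides Tagln, Smtn and Vcl, Tpm4 passed in DON. Tpm4, a tropomyosin gene, fell from 4843 ± 73.0 to 3821 ± 183 CPM (log2 -0.34 ± 0.08, edgeR adjusted p = 0.00684), a call lost without DON replicate 3 (0.0645). It was at 3823 ± 628 CPM in DON plus glutamate, a fall of the same size against control (adjusted p = 0.0121) that was lost without control replicate 1 (0.0524), control replicate 2 (0.0617) or DON plus glutamate replicate 2 (0.153). Actn1, the alpha-actinin gene that the contractile and adhesion lists share, gave -0.17 ± 0.07 in DON (adjusted p = 0.158), and Ppp1r12b 0.01 ± 0.20. Of 24 focal adhesion genes 6 were tested, and 2 of the 5 besides Vcl fell in DON. Tes fell from 272 ± 23.5 to 186 ± 14.0 CPM (log2 -0.55 ± 0.11, adjusted p = 0.00141), and the integrin-linked kinase gene Ilk from 3774 ± 129 to 3054 ± 75.6 CPM (log2 -0.31 ± 0.07, adjusted p = 0.00413). Tes also fell against control in DON plus glutamate, by a log2 change of -0.47 ± 0.11 (adjusted p = 0.00988), which was lost without control replicate 2 (0.0586) or 3 (0.0729) or DON plus glutamate replicate 1 (0.0590) or 3 (0.0558). Zyx, which encodes the adhesion protein zyxin, gave 0.11 ± 0.11 in DON (adjusted p = 0.564) and Actn4 0.02 ± 0.15. In the thrombospondin and CCN family 3 of 11 genes were tested, and Thbs3 gave -0.22 ± 0.08 in DON (adjusted p = 0.0696) beside Thbs1 and Ccn2.

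**Figure D5:**
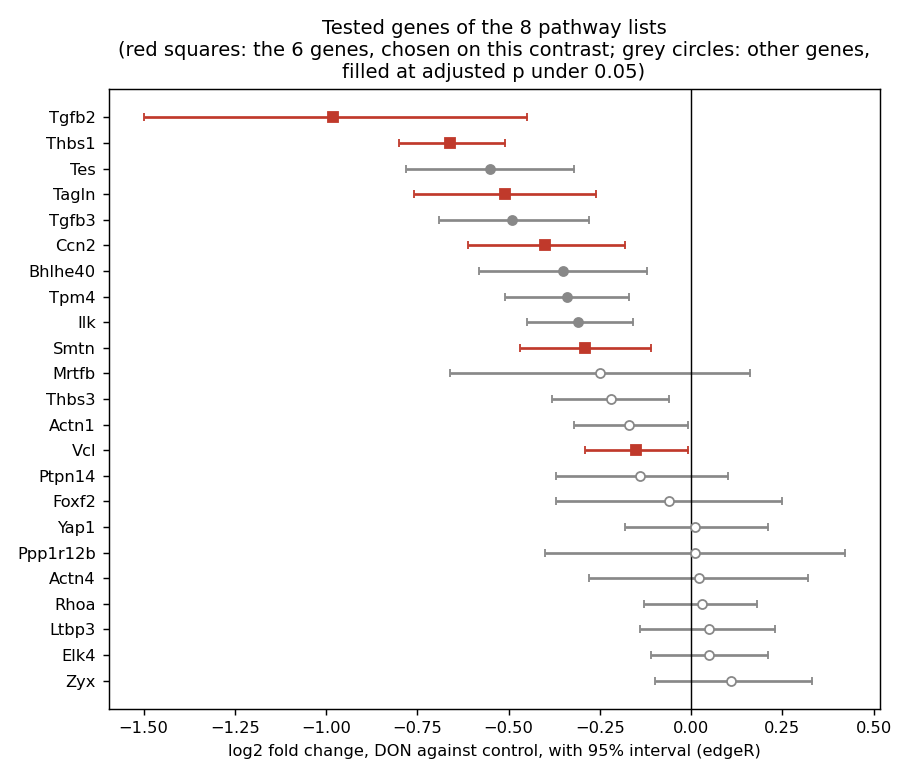
Log2 difference with its 95% interval in DON against control for the 23 tested genes of the 8 lists. The 6 genes, taken as chosen on this contrast, are red squares, and the others are grey circles, filled at adjusted p under 0.05. The 5 genes outside the 6 that passed in DON, Tgfb3, Tes, Ilk, Tpm4 and Bhlhe40, lie below 0, and Yap1 and Rhoa lie near 0.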

How the data were processed

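Per the labels' protocols, silica columns were used to extract RNA, and BGI prepared libraries on its DNA nanoball platform. STAR, HTSeq and mm10 are named, per the submitters' processing notes, without versions. The authors deposited raw counts, whole numbers of reads for each gene. No label states the strand setting.

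Row identifiers were matched to GENCODE M21 (53274 of 53379 rows). Each row was read as the coding gene on the opposite strand where its exons overlapped those of exactly 1 such gene by at least 50 bp, taking the row of highest mean where a gene had several. Counts of the 2444 genes kept by filterByExpr were tested two-sided with edgeR 4.0.16 in R 4.3.3 (TMM, glmQLFit, glmQLFTest), in 1 fit of 3 groups with 29.5 degrees of freedom after moderation. Benjamini-Hochberg adjustment ran over all 2444 genes, and adjusted p under 0.05 was called. The test was tested on simulated data. Totals count assigned reads only and are not sequencing depth, and low counts limit precision, most of all for Tgfb2. No pair of replicates agreed within sampling noise (chi-square per degree of freedom 2.051 to 3.615).

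The 6 genes, the 8 gene lists, the 6 marker lists and the tests were chosen with earlier results of these data known. Named are the 6 genes, Ap3m1 by row Vcl, the tested genes of the lists, and per gene the 3 genes most like it (Pearson r of log2 CPM, prior count 2, at least 50 CPM, not within 100000 bp, no predicted models), of which 1 is not reported here. Pcsk7, Pdgfra and the unmeasured examples were added after their values were seen. Alternatives were library totals, DESeq2 1.42.0 size factors, no filter, at least 10 counts in 3 libraries, the DESeq2 Wald test, limma 3.58.1 voom, the replicate number as a block, only the groups compared, all deposited rows, an overlap of at least 200 bp, and each library left out.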

Additional observations from a re-analysis of the deposited data

How the results depend on the processing

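In DON against control the log2 differences of the 6 genes stayed below 0 in every alternative, from -0.68 to -0.62 for Thbs1, -1.09 to -0.82 for Tgfb2, -0.56 to -0.44 for Tagln, -0.43 to -0.36 for Ccn2, -0.35 to -0.21 for Smtn and -0.19 to -0.09 for Vcl. These values are taken as those that chose the genes and are no sign of stability. In DON plus glutamate against DON, 110 results of the 6 genes kept their side of the threshold and 3 came to pass, and against control 108 kept it and 5, all of Smtn, came to pass. Tgfb2 has no row at 200 bp of overlap. Smtn in DON plus glutamate against control also passed with no filter (0.0124), only the groups compared (0.0389) and an overlap of 200 bp (0.0468). For the other list genes 912 results kept their side, 1 came to pass (Tgfb3 in DON plus glutamate against control at 200 bp, 0.0246) and 27 no longer passed. The main row of Tgfb3 overlaps by 163 bp, so the 200 bp setting read another row of that gene. That row gave a log2 change of -0.47 against -0.31 in this contrast, and -0.63 against -0.49 in DON against control.

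Genes called in DON against control numbered 283, and from 142 to 292 with 1 library left out: 186 and 142 without control replicate 1 or 2, and 180 and 178 without DON replicate 2 or 3. In DON plus glutamate against control they numbered 131, and from 73 to 154: 83 and 77 without control replicate 2 or 3, and 73 without DON plus glutamate replicate 2. In DON plus glutamate against DON 1 gene was called with edgeR (174 at an unadjusted p under 0.05), 4 with no filter, 7 with all deposited rows, and from 0 to 3 with 1 library left out: 0 without DON plus glutamate replicate 1 or 2, 3 without replicate 3 and 2 without DON replicate 2.

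Libraries share replicate numbers across groups, but deviations from the group means of same-numbered libraries correlated between -0.103 and 0.073. This gave no sign of pairing by number, although weak pairing, or pairing in few genes, could be missed this way. With the replicate number as a block the counts were 215, 1 and 109, none over 1.5 times from those without it, and no call of the 6 genes against DON or against control in DON plus glutamate changed, while Bhlhe40 lost its calls in DON (0.0739) and in DON plus glutamate (0.0903) against control.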
